A study of Gallus gallus with 12 samples.

Results

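MAP1B, CLMN, SYNJ2 and VIM are genes of the cytoskeleton and of the membranes it is anchored to, and they are described here in broiler breast muscle with and without white striping and wooden breast, a myopathy that leaves pale stripes in the meat and makes the fillet hard. They were taken from a list of 7 symbols (MAP1B, CLMN, SYNJ2, VIM, DES, NES and FLNC) by keeping every transcript cluster that the platform annotation assigns to 1 of these symbols alone. That gave 4 of the 7 genes, in 5 clusters, out of 11528 genes with a cluster of their own. CLMN had 2 clusters, and the brighter one stands for the gene unless the second is named. NES shares its cluster with another gene and, like DES and FLNC, was not analysed here. The genes had been chosen with the comparison of affected and normal muscle already known, so their differences between the groups are given as a description and carry no test.

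The samples were breast fillets (Pectoralis major, a fast white muscle) from 12 birds of Ross 708, a commercial meat-type hybrid. All birds were labelled male, came from a single flock and were slaughtered at an average live weight of 3.7 kg, and their age is not given in the sources used here. Of the fillets, 6 had been graded as normal and 6 as showing white striping with wooden breast, with 1 whole-transcript array per bird. Each value is a log2 level, so a difference of 1 is a doubling, and levels are compared between birds for a given cluster but not between genes. The array medians ran from 4.05 to 4.16. The muscle label was checked against 9 measured markers of skeletal muscle: their summed level, the log2 of the sum of their linear levels, was 14.44 to 14.67 in normal and 14.52 to 14.62 in affected birds, and ACTA1, the skeletal muscle actin, lay between 12.39 and 12.69 on all arrays.

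Despite the male label, 3 normal arrays carried HINTW, a transcript of the W chromosome that only female birds have. HINTW stood at 8.51 to 9.41 in normal birds 1, 4 and 5 and at 2.46 to 2.99 on the other 9 arrays, with the limit set at 6. The differences of MAP1B, CLMN, SYNJ2 and VIM and the medians of most gene lists are therefore also given without these 3 arrays. That leaves 3 normal and 6 affected birds. For most other single genes and for the marker sums, the values below are given with all arrays only, these 3 included. The level of 2.99 also serves as a rough mark of dimness, since it was reached by a transcript that the other birds should lack. It comes from the HINTW cluster alone. The background of other clusters is not known, so the mark does not show whether they are detected.

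MAP1B is a microtubule-associated protein. It is best known from growing nerve fibres of mammals, where it is cut into a heavy and a light chain that bind and stabilise microtubules. CLMN (calmin) carries calponin homology domains, which bind actin, and a membrane anchor. SYNJ2 (synaptojanin 2) is an inositol phosphatase that removes phosphate groups from membrane phosphoinositides, lipids that direct actin assembly and vesicle uptake. VIM (vimentin) forms the intermediate filaments of fibroblasts, endothelium and white blood cells, and in mammalian muscle it is found in immature and regenerating fibres, while mature fibres rely on desmin.

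MAP1B, CLMN and SYNJ2 were higher in affected muscle, by 3.35-fold, 4.23-fold and 2.27-fold, while VIM, at 1.14-fold, had nearly the same level in both groups. In limma's fit over all 20804 clusters these 3 of the 4 genes lay past an adjusted p of 0.05, as did 1.14% of all clusters. Nothing is read from that count, because the genes were picked with this comparison in view. It was 0 of 4 without any 1 of normal birds 1 to 4 or of affected birds 2, 3, 4 and 6. In those fits only 1 to 91 of all 20804 clusters were called, against 238 with all birds. The count for these genes was 1 of 4 without normal bird 5 or 6, where 318 and 437 clusters were called. In whole muscle, a higher level per cell and a larger share of cells that express the gene cannot be told apart.

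MAP1B, in transcript cluster 15562946 on chromosome Z of the GRCg7b gene table, ranged from 3.81 to 5.65 in normal birds with a median of 5.37. In affected birds it ranged from 5.68 to 7.78 with a median of 6.90. The groups did not overlap, but the gap was only 0.03 between affected bird 5, the lowest of its group, and normal bird 6, the highest of its own. Normal bird 2 was the lowest of all arrays. The group means were 5.12 ± 0.70 (SD, n = 6) and 6.87 ± 0.78, a difference of 1.74 ± 0.37 on the log2 scale (limma's moderated standard error). Of all clusters, 1.06% had every affected bird above every normal bird.

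CLMN, in cluster 15523502 on chromosome 5, ranged from 2.85 to 4.29 in normal birds (median 3.39) and from 4.38 to 7.29 in affected birds (median 5.12). The groups did not overlap, and the gap between them was 0.09. Affected birds 4 and 6 stood at 7.29 and 6.54, well above the other affected birds, which reached at most 5.27. Group means were 3.47 ± 0.54 (SD, n = 6) and 5.55 ± 1.12, with a difference of 2.08 ± 0.44. Normal bird 6, at 2.85, lay below the dimness mark of 2.99, and normal birds 2 and 3 lay just above it at 3.19 and 3.04.

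The second CLMN cluster, 15523496, had a smaller difference of 1.42 ± 0.41. It ranged from 2.82 to 3.81 in normal birds and from 3.48 to 6.50 in affected birds, so that 5 of 6 affected birds lay above every normal bird and affected bird 5 did not. Normal birds 2 and 6, at 2.82 and 2.98, lay below the dimness mark of 2.99, so the size of this difference is uncertain. Both clusters ordered the same 2 birds at the top. The brighter cluster exceeded the second by 0.14 ± 0.25 (SD, n = 6) in normal and by 0.80 ± 0.26 in affected birds. The excess of the brighter cluster ran from -0.13 to 0.48 in normal and from 0.37 to 1.12 in affected birds, which overlap.

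SYNJ2, in cluster 15489367 on chromosome 3, ranged from 3.22 to 4.01 in normal birds (median 3.41) and from 3.84 to 5.69 in affected birds (median 4.50). All normal values lay below the lowest array median of 4.05, though above the dimness mark of 2.99. The groups overlapped through normal bird 1, which carried HINTW and stood at 4.01, above affected bird 1 at 3.84. Of the 6 affected birds, 5 lay above every normal bird, with birds 4 and 6 again the highest. The group means were 3.47 ± 0.29 (SD, n = 6) and 4.65 ± 0.66, a difference of 1.18 ± 0.26. The spread of CLMN and SYNJ2 was 2.08 and 2.24 times as large in affected as in normal birds, against 1.11 times for MAP1B.

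VIM, in cluster 15457105 on chromosome 2, ranged from 9.72 to 10.44 in normal birds (median 10.12) and from 10.02 to 10.55 in affected birds (median 10.32). Only affected birds 4 and 6 lay above every normal bird. The group means of 10.11 ± 0.29 (SD, n = 6) and 10.30 ± 0.21 differed by 0.19 ± 0.14. The 3 highest normal values came from the arrays with HINTW, as described next.

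**Figure D1:**
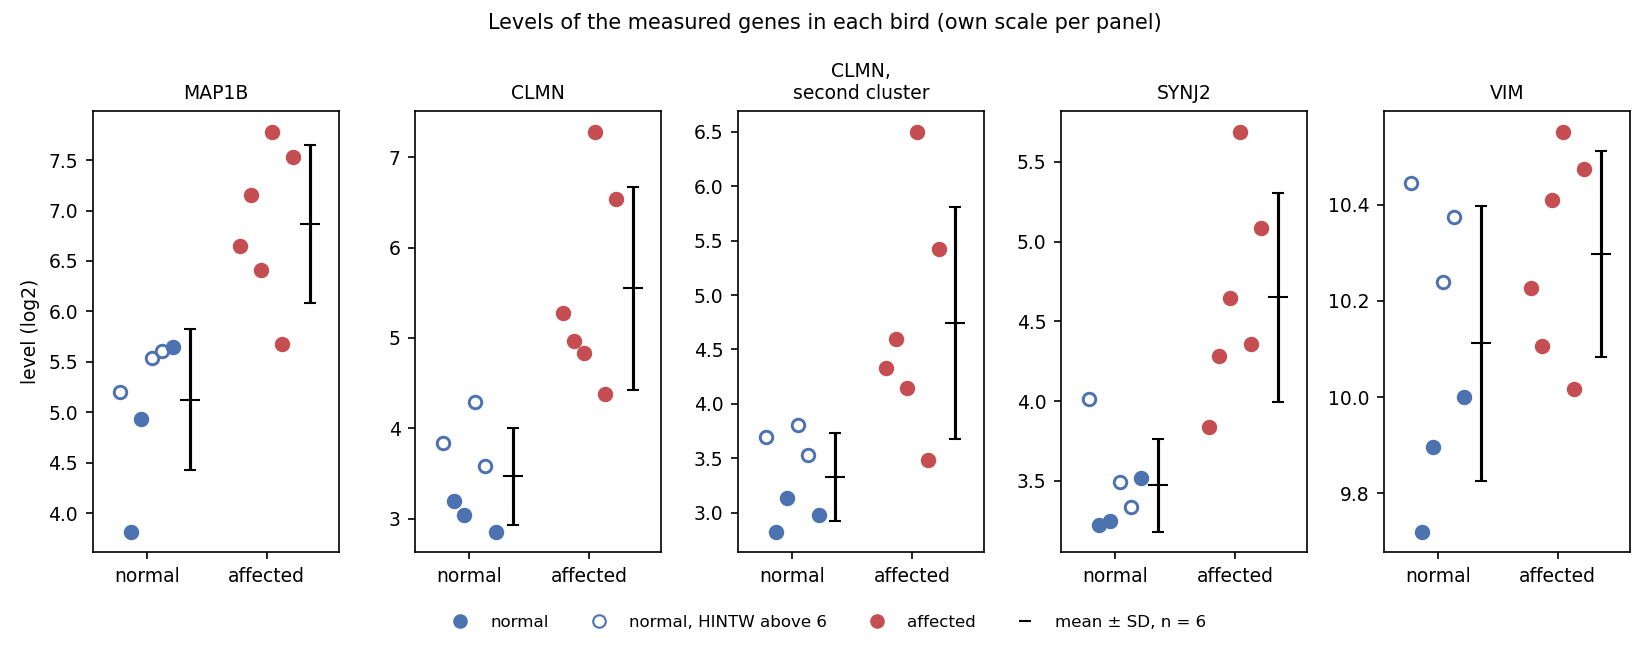
Log2 levels of MAP1B, CLMN (both clusters), SYNJ2 and VIM in each bird, with a separate vertical scale per panel. Filled circles are arrays with HINTW at or below 6, open circles the 3 normal arrays above it, and bars show the mean ± SD of 6 birds. MAP1B and the brighter CLMN cluster do not overlap between groups, SYNJ2 overlaps through normal bird 1, and VIM overlaps widely.

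Without the 3 arrays with HINTW the differences were larger for all 4 genes. MAP1B differed by 2.07 ± 0.48, CLMN by 2.52 ± 0.56, SYNJ2 by 1.32 ± 0.33 and VIM by 0.43 ± 0.13 on the log2 scale. For MAP1B the larger difference leans on normal bird 2, at 3.81, beside 4.93 and 5.65 in normal birds 3 and 6. With normal bird 2 alone left out, MAP1B differed by 1.48 ± 0.32. The 3 normal birds left without the arrays with HINTW had CLMN at 2.85 to 3.19, around the dimness mark of 2.99, so the size of its difference is uncertain. Every one of the 6 affected birds then lay above the 3 remaining normal birds for each of the 4 genes, as was the case for 4.55% of all clusters in this smaller comparison. None of the 4 genes passed an adjusted p of 0.05 in limma there, where 0.0144% of clusters did, 3 of 20804, all higher. At an unadjusted p under 0.05 there were 3685 clusters. The fit with HINTW as a covariate compares nearly the same birds, and gave differences of 2.11, 2.54, 1.31 and 0.44 in the same order, with none of the 4 genes called against 0.0433% of all clusters.

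The normal arrays with HINTW had higher levels of VIM, at 10.35 ± 0.10 (SD, n = 3), than the other normal arrays, at 9.87 ± 0.14, with no overlap. CLMN behaved alike, with 3.90 ± 0.36 (SD, n = 3) on the arrays with HINTW and 3.03 ± 0.17 on the other 3. MAP1B lies on the Z chromosome, of which female birds have 1 copy and males have 2. The median Z-linked gene, of 515 other than MAP1B, was 0.13 lower on the log2 scale on the normal arrays with HINTW than on the remaining normal arrays, but MAP1B was not lower. It averaged 5.45 ± 0.22 (SD, n = 3) on the arrays with HINTW and 4.80 ± 0.93 on the other 3, among them normal bird 2 at 3.81. These 3 against 3 arrays were not tested.

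**Figure D2:**
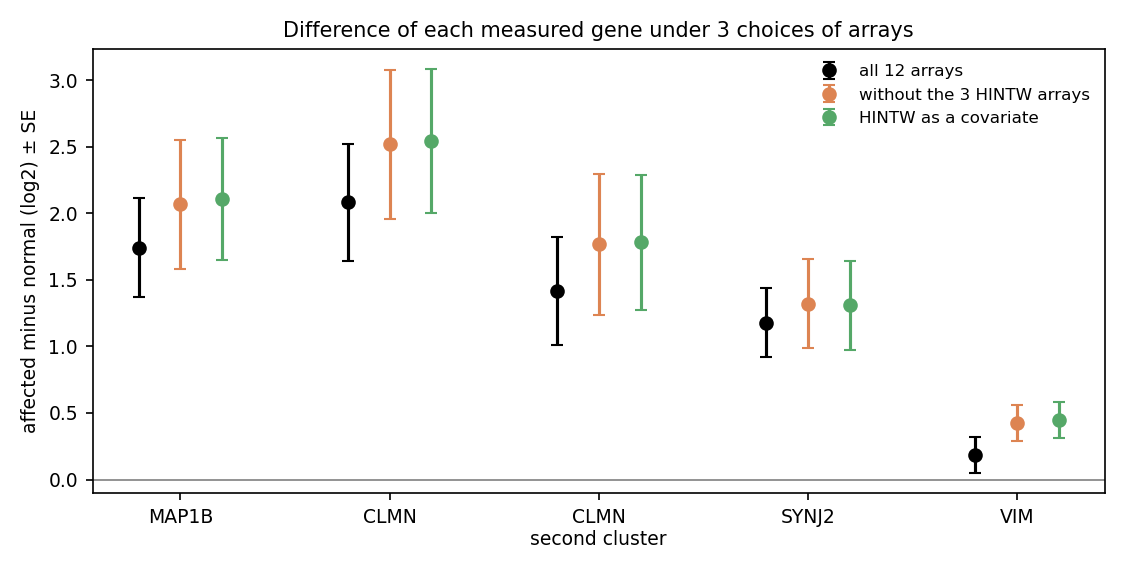
Difference in log2 level, affected minus normal, with limma's standard error for each gene and for the second CLMN cluster. Black points use all 12 arrays, orange points leave out the 3 normal arrays with HINTW, and green points keep all arrays with HINTW as a covariate. Each difference is larger in both other fits than with all arrays.

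Within the affected group, birds with high MAP1B tended to have high CLMN, though these 6 birds were also part of the comparison from which the genes were chosen. Over the 6 affected birds Pearson's r was 0.885 (exact permutation p = 0.0139, 0.0833 adjusted over 6 pairs) and Spearman's rho was 0.943 (exact permutation p = 0.0167, adjusted 0.1). After adjustment this and the other 5 pairs missed the threshold of 0.05 by both measures. The other pairs had r from 0.651 for MAP1B with SYNJ2 to 0.830 for CLMN with VIM. Without affected birds 5 and 4, the farthest from the median of MAP1B, r for MAP1B was 0.782 with CLMN, 0.515 with SYNJ2 and 0.0996 with VIM. For CLMN with SYNJ2 r was 0.821 (exact permutation p = 0.0486, adjusted 0.0938), and 0.566 to 0.948 with any 1 affected bird left out. It was -0.610 without affected birds 4 and 6. Values of r without 2 birds rest on too few birds to be read alone. For CLMN with VIM r was 0.441 without birds 4 and 6, and for SYNJ2 with VIM it was 0.893 without birds 4 and 1.

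By a ranking of 11027 named genes, those whose deviations from the group means were most like those of MAP1B over the 9 arrays without HINTW were CD47, SORCS2, SNAI2, CD82 and COL1A2, with r from 0.973 to 0.986. CD47 is a surface protein that restrains uptake by macrophages, SNAI2 a repressor of epithelial genes that promotes epithelial-mesenchymal transition and COL1A2 a chain of type I collagen. Over all 12 arrays r was 0.971 for COL1A2 and 0.697 for SNAI2. These values describe a ranking over few arrays and are not tested. COL1A2 differed between the groups by 1.06 ± 0.35, and SNAI2 by 1.34 ± 0.25.

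The genes most like CLMN were ARSJ, ADCY8, GBP4L, MYL12B and TMOD3, with r from 0.956 to 0.994 over the 9 arrays and from 0.636 to 0.910 over all 12. ADCY8 was dim, at 2.54 in normal and 2.65 in affected muscle. MYL12B, a regulatory light chain of non-muscle myosin, and TMOD3, which caps the slow-growing end of actin filaments, belong to the actin list described below. MYL12B differed between groups by 0.31 ± 0.17 and TMOD3 by 0.49 ± 0.13. VIM was most like FAM208A, CD1B, RASL10B, TMEM108 and SLC35G2, with r from 0.958 to 0.967 over 9 arrays but from 0.446 to 0.945 over 12.

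The genes beside MAP1B, CLMN, SYNJ2 and VIM on their chromosomes, looked up after the values were seen, are given for comparison. For each gene the nearest measured protein-coding gene on either side in the gene table was taken, 8 in all, and none passed in limma, with adjusted p from 0.0612 to 0.968. DICER1 and SYNE3, which flank CLMN, differed by 0.04 ± 0.11 and 0.13 ± 0.11. MRPS27 and TMEM252, which flank MAP1B, differed by 0.38 ± 0.25 and -0.16 ± 0.08, and the first by -0.19 without the arrays with HINTW. SNX9, a sorting nexin next to SYNJ2, had the smallest p of the 8, with a difference of 0.33 ± 0.08.

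Other genes of the cytoskeleton were examined in 6 lists chosen by function, with the 4 genes above left out. The lists were drawn up with earlier results of these data known, so the shares below are a description. Of the 252 genes measured in these lists 5 rose in affected muscle in limma's fit and none fell. The 5 are 1.98% of the genes, against 0.84% of all named genes called higher, and 0.32% of named genes were called lower (0.63% and 0.514% of all clusters). At an unadjusted p under 0.05 there were 70 of the 252, or 27.8%, against 23.2% of all named genes, and the counts at that threshold below are to be read against this share. Of the 252 genes, 65.1% had a positive difference and the median was 0.09, beside 50.6% and 0.0027 for all 11528 named genes. Without the arrays with HINTW none of the 252 passed in limma (smallest adjusted p = 0.0701, and 82, or 32.5%, at an unadjusted p under 0.05 against 19.4% of all named genes), while 65.5% were positive against 48.5% of all named genes. The 5 calls also changed when single birds were left out, as did the number of calls over all 20804 clusters. Without affected bird 6 none of the 5 remained, and 1 cluster was called in all. Only 1 of the 5 remained without normal bird 2, 3 or 4 or affected bird 4, with 22 to 91 clusters called. Without normal bird 1 or affected bird 2 or 3 there were 2 left, with 25 to 50 clusters called. All 5 kept their sign in each of these fits, and all 5 remained without normal bird 5 or 6 or affected bird 1 or 5.

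Among microtubule proteins, 1 of 43 rose and none fell, with a median difference of 0.08, and also 0.08 without the arrays with HINTW. TUBG1, the gamma-tubulin from which microtubules are nucleated, ranged from 4.90 to 5.77 in normal and from 5.91 to 6.39 in affected birds, with no overlap. It rose by 0.81 ± 0.15 (adjusted p = 0.0348). MAP1A, the closest relative of MAP1B in the list, had a difference of 0.43 ± 0.11 (adjusted p = 0.0617), with 5 of 6 affected birds above every normal bird. MAP1LC3A and MAP1LC3B, which encode autophagy proteins first purified as light chains of MAP1 proteins in mammals, had differences of -0.03 ± 0.18 and 0.12 ± 0.17, with no affected bird above every normal bird.

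The calponin homology list, which holds the actin-binding relatives of CLMN and nuclear envelope linkers, had 2 of 33 genes called, both higher. Of its members 31 of 33 had a positive difference, with a median of 0.28, and 0.38 without the arrays with HINTW. SPTBN1, a beta-spectrin of the membrane skeleton, ranged from 7.69 to 8.12 in normal and from 8.12 to 8.59 in affected birds, and 5 of 6 affected birds lay above every normal bird. It rose by 0.49 ± 0.10 (adjusted p = 0.0389). LRCH2, which combines leucine-rich repeats with a calponin homology domain, rose by 0.45 ± 0.09 (adjusted p = 0.0383), from 4.86 to 5.14 in normal to 5.28 to 5.69 in affected birds. SYNE1 (nesprin 1), which links nuclei to actin, had a difference of 0.32 ± 0.11 (adjusted p = 0.129).

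No gene of the intermediate filament list was called. It held the relatives of VIM with their linkers, 20 genes in all. Its median difference was -0.02, and 0.06 without the arrays with HINTW. At an unadjusted p under 0.05 in limma 2 were higher and 2 lower. SYNM (synemin), a partner of desmin filaments, had the smallest p, with a difference of 0.36 ± 0.11 (adjusted p = 0.0869). SYNC (syncoilin) had a difference of 0.11 ± 0.15. Among dim members, 5 of the 20 had both group means at or below 2.99.

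Among filamin partners and Z-disc proteins, 2 of 36 rose and none fell, with a median of 0.09, and also 0.09 without the arrays with HINTW. CSRP3, a muscle LIM protein of the Z-disc, ranged from 4.20 to 6.48 in normal and from 7.33 to 10.24 in affected birds and rose by 3.30 ± 0.50 (adjusted p = 0.0175). CRYAB, a small heat shock protein that protects desmin filaments in mammals, reached at most 7.79 in normal birds and at least 7.80 in affected birds, and rose by 0.76 ± 0.14 (adjusted p = 0.0328). The affected birds highest in CSRP3, birds 4 and 6 at 10.24 and 9.85, were those highest in MAP1B, CLMN and SYNJ2. XIRP1, a filamin-binding actin protein of the striated muscle, had a difference of -0.28 ± 0.19 (adjusted p = 0.387).

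None of 69 genes in the list built around phosphoinositide metabolism and vesicle uptake passed in limma. At an unadjusted p under 0.05, 15 were higher and 4 lower. The median was 0.07, and also 0.07 without the arrays with HINTW. SYNJ1, the relative of SYNJ2, ranged from 4.27 to 5.32 in normal and from 4.90 to 5.15 in affected birds, a difference of 0.33 ± 0.14 (adjusted p = 0.188). PAK2, a protein kinase that acts on the actin cytoskeleton, had the smallest p of this list, with a difference of 0.42 ± 0.12 (adjusted p = 0.0803). In the actin list none of 51 passed, with 11 higher and 3 lower at an unadjusted p under 0.05. Its median was 0.13, and 0.32 without the arrays with HINTW. The smallest p belonged to TMOD3 (adjusted p = 0.0667).

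**Figure D3:**
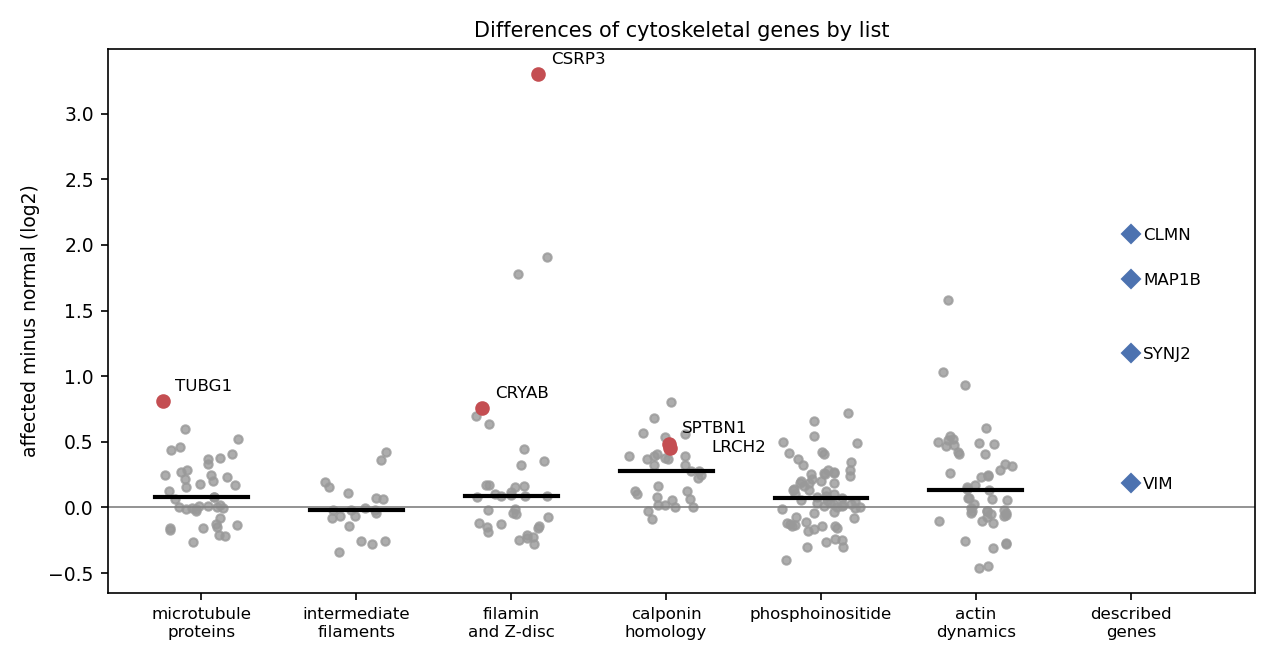
Difference in log2 level, affected minus normal, of each measured gene in 6 cytoskeletal lists, with MAP1B, CLMN, SYNJ2 and VIM at the right as diamonds. Red circles passed an adjusted p of 0.05 with all 12 arrays, grey circles did not, and horizontal lines are list medians. TUBG1, CSRP3, CRYAB, SPTBN1 and LRCH2 passed, all of them higher in affected muscle.

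Markers of fibroblasts and white blood cells reached higher levels in affected muscle but did not pass as single genes. Of 9 measured fibroblast markers none passed in limma, 7 were higher at an unadjusted p under 0.05, and 8 of 9 had a positive difference with a median of 0.99. Their summed level was 9.96 to 12.01 in normal and 11.73 to 13.20 in affected birds. None was at or below 2.99 in both groups. The lowest bird of each group in this sum, normal bird 2 and affected bird 5, was also the lowest of its group in MAP1B. Normal bird 6 and affected bird 5, at sums of 12.01 and 11.73, had MAP1B levels of 5.65 and 5.68.

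Leukocyte markers, 12 measured, had summed levels of 8.73 to 10.43 in normal and 9.96 to 11.06 in affected birds. Of these 12, 11 had a positive difference and none was called (5 higher at an unadjusted p under 0.05). Their median difference was 0.67, and 0.98 without the arrays with HINTW. Markers of satellite cells and regenerating fibres, 9 measured, summed to 9.47 to 9.81 and 9.71 to 10.45. There 1 of 9 was called in limma, CHRND, an acetylcholine receptor subunit, at 0.76 ± 0.17 (adjusted p = 0.0471, and 0.119 without the arrays with HINTW). PAX3 was dim. The median of this list was 0.18, and only 0.08 without the arrays with HINTW. Schwann cell and nerve markers summed to 8.19 to 8.56 and 8.21 to 8.92. None of these 10 was called in limma (1 higher at an unadjusted p under 0.05). Their median was -0.02, and 0.04 without the arrays with HINTW. Among them S100B, SNAP25, NEFM and CDH19 were at or below 2.99 in both groups.

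Within the affected birds the summed levels of all 9 marker lists were set against the 4 genes, in 36 relations that were computed after the values were seen and adjusted together. Each sum adds linear levels, so its brightest markers weigh most and r may reflect few genes of a list. By Pearson's r 3 of the 36 passed, and by Spearman's rho none did. With 6 birds even a perfect rho has an exact permutation p of 0.00278, adjusted to 0.1, so no single relation could pass by rho. The smallest exact permutation p possible for r, 0.00139, would not pass alone either, so each call by r leans on the others. MAP1B correlated with the leukocyte sum at r = 0.985 (exact permutation p = 0.00139, adjusted 0.0333; rho = 1, exact permutation p = 0.00278, adjusted 0.1) and with the fibroblast sum at r = 0.969 (exact permutation p = 0.00278, adjusted 0.0333; rho = 0.943, exact permutation p = 0.0167, adjusted 0.12), each over 6 birds. Without affected birds 4 and 5 these values of r were 0.980 and 0.905. CLMN correlated with the satellite cell and regenerating fibre sum at r = 0.982 (exact permutation p = 0.00278, adjusted 0.0333; rho = 0.943, exact permutation p = 0.0167, adjusted 0.12), and at 0.974 without birds 4 and 6. With any 1 affected bird left out, r ran from 0.978 to 0.992, from 0.927 to 0.986 and from 0.980 to 0.989 for these 3 relations in the same order. With 5 birds none of the 3 passed (adjusted p from 0.075 to 0.24 by exact permutation), but so few orderings of 5 birds exist that this says little about the relations. SYNJ2 and VIM passed with no list, and their highest r was 0.748 for SYNJ2 with the fibroblast sum and 0.866 for VIM with the regeneration sum. The other 6 lists had r from -0.684 to 0.715 with the 4 genes. In the fibroblast, leukocyte and regeneration sums alike, affected birds 4 and 6 were the highest and bird 5 the lowest. Relations with these sums therefore cannot be told apart. The part of these cells in the differences between affected and normal muscle was not tested.

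**Figure D4:**
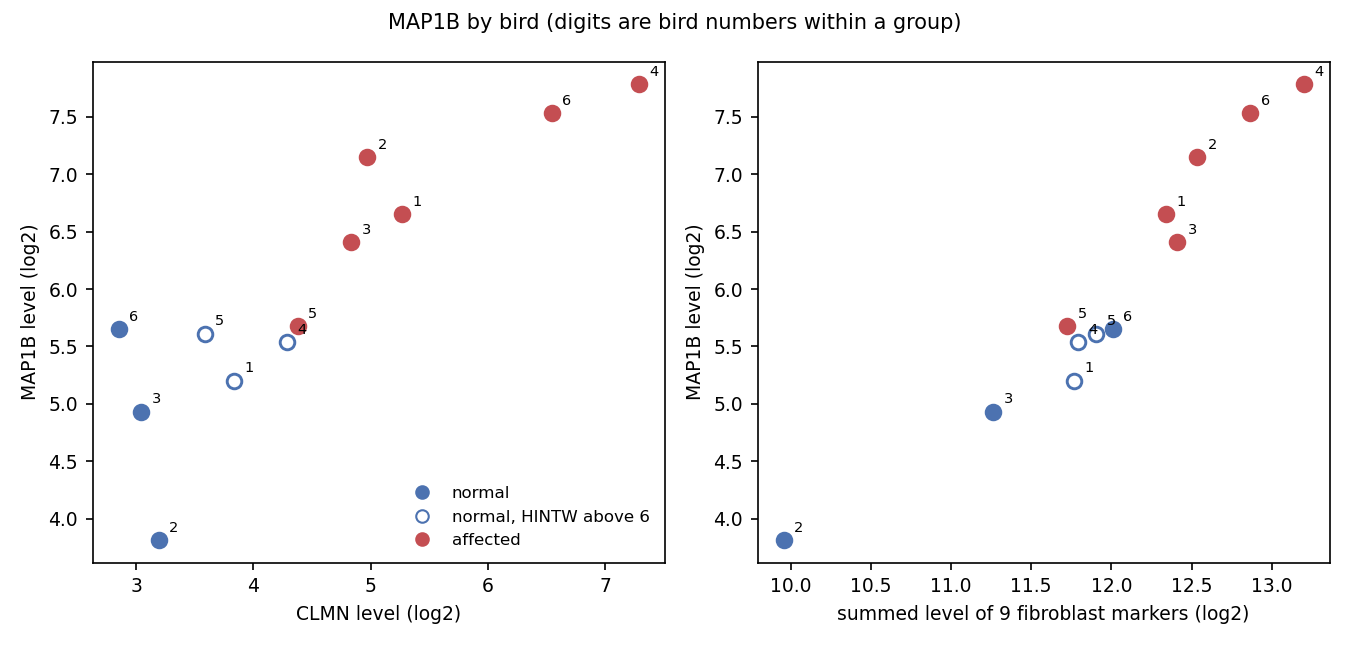
MAP1B level (log2, vertical) of each bird against the CLMN level (left) and against the log2 of the summed level of 9 fibroblast markers (right), with bird numbers beside the points. Filled blue circles are normal birds, open blue circles normal birds with HINTW and red circles affected birds. Affected birds 4 and 6 are at the top of both panels, and affected bird 5 lies among the normal birds in the fibroblast sum.

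The sums of the remaining marker lists, like those above, overlapped between the groups, and these lists held no call in limma. Smooth muscle and pericyte markers, 7 measured, summed to 8.68 to 9.29 in normal and 8.90 to 9.22 in affected birds (1 higher at an unadjusted p under 0.05). Endothelial markers, 10 measured, summed to 9.57 to 10.04 and 9.50 to 9.69 (2 lower). Adipocyte markers, 5 measured, summed to 8.10 to 8.75 and 8.37 to 9.07 (2 higher), and red cell markers, 5 measured, to 7.31 to 8.22 and 7.59 to 9.13 (1 higher and 1 lower). The 9 skeletal muscle markers had 1 lower at an unadjusted p under 0.05. The mean of the log2 sums was higher in affected birds by 0.42 for adipocyte and 0.40 for red cell markers, beside 0.42 for regeneration markers. Median differences, with all arrays and without those with HINTW, were 0.44 and 0.59 for adipocyte and -0.08 and -0.02 for red cell markers. They were 0.04 and -0.07 for smooth muscle and pericyte, -0.08 and -0.05 for endothelial and -0.01 and -0.08 for skeletal muscle markers.

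**Figure D5:**
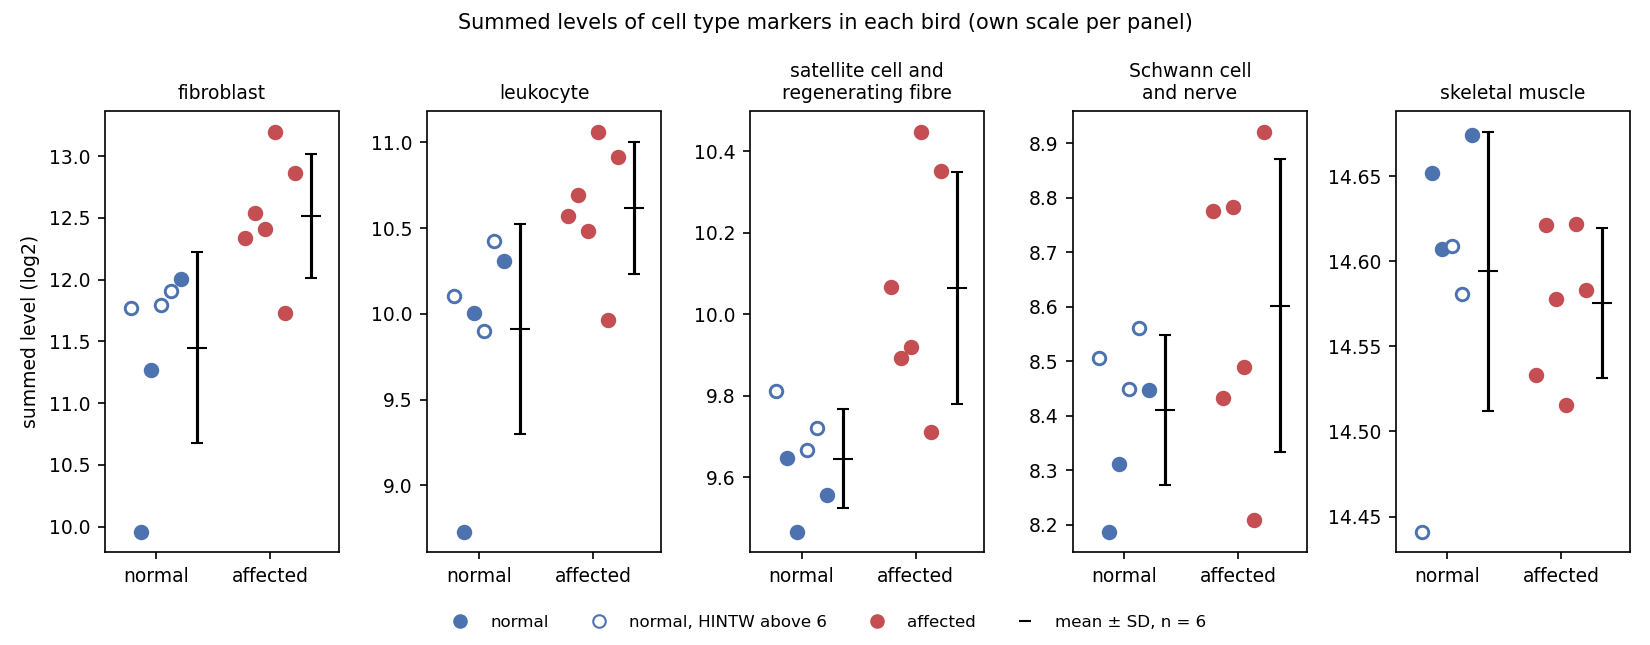
Log2 of the summed level of 5 marker lists in each bird, with a separate vertical scale per panel, symbols as for the gene levels and bars for the mean ± SD of 6 birds. The fibroblast, leukocyte and regeneration sums reach higher in affected birds and overlap with normal birds, with affected birds 4 and 6 the highest in all 3.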

How the data were processed

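Total RNA (150 ng) of 12 muscles was labelled with the Affymetrix whole-transcript kit, 1 array per bird, per the labels' protocols. Partek is named in the submitters' processing notes, with no role. How background, probe summaries and scaling were handled, and on which genome build, is not stated in the sources used here. The deposited values were read as log2 levels from their range of 1.04 to 12.9. The log base is not stated, and no background flags were used.

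Of 20804 clusters 12300 had 1 platform symbol, of which 11727 were updated through Entrez IDs in a GRCg7b gene table, used for names, chromosomes and neighbours only. The Entrez ID of the brighter CLMN cluster is not in that table, so its platform symbol was kept. The brightest cluster stood for a gene.

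Affected minus normal was fitted with limma 3.58.1 (R 4.3.3; lmFit, eBayes) over all clusters with Benjamini-Hochberg adjustment. The fit was run on simulated data with independent normal errors and an equal spread in both groups. That simulation held no differences shared by all clusters of a bird and no unequal spreads, so it says nothing about those. Correlations used all 720 pairings of 6 birds, two-sided. Replicates are separate birds, and their number limits the precision. The genes and lists were chosen with earlier results of these data known, and the neighbours and marker correlations after the values were seen. Named beyond the 4 genes were up to 4 called genes per list by size, or else the gene with the smallest p, listed relatives, and the 5 genes most alike. Figures used matplotlib 3.10.9.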

Additional observations from a re-analysis of the deposited data

Results flagged for a closer look

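In 40 groups of 6 values (the described clusters and the named list genes, by group), 3 held a bird set apart from the others by more than 0.625 of the group's range, and chance gives about 1 in 20. SYNJ2 was at 4.01 in normal bird 1, the highest of its group. LRCH2 was at 4.86 in normal bird 4, the lowest of its group. TMOD3 was at 6.56 in normal bird 5, the highest of its group. All 3 are arrays with HINTW.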

How the results depend on the processing

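The differences of MAP1B, CLMN and SYNJ2 stayed positive under every alternative run. Apart from the fits that left out a single bird, they reached up to 2.11, 2.54 and 1.32 and down to 1.30, 1.68 and 0.92. The second CLMN cluster, which is a separate measurement, gave 1.42. SYNJ2 was too dim for the fit on clusters above the median level. VIM, at 0.19 with all arrays, was 0.44 once HINTW entered as a covariate. It was 0.06 when normal bird 2 and affected bird 4 were both left out, a setting added after the data were seen. Leaving out each bird gave 1.48 to 1.98 for MAP1B, 1.73 to 2.32 for CLMN, 0.97 to 1.34 for SYNJ2 and 0.11 to 0.25 for VIM.

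The count of all clusters called, 238, was 455 with clusters above the median level only, 3 without the HINTW arrays, 9 with the covariate and 1 without those 2 birds. Single birds left out gave counts from 1 to 588. With each array centred on its median 225 were higher and 117 lower, against 131 and 107. The 5 cytoskeletal list genes became 10 with clusters above the median level, where fewer were tested, and 0 without the HINTW arrays, 0 with the covariate and 0 without those 2 birds. Leaving out 1 bird gave 0 to 9. The cause was not tested.

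Among affected birds, r for MAP1B with CLMN was 0.840 to 0.977 with 1 bird left out. The 3 marker relations that passed also passed after quantile normalization and after centring each array on its median. No paired analysis was possible because birds were numbered in accession order, which pairs none of them.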

Other observations

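Among genes of the 6 cytoskeletal lists that did not pass in limma, 4 had differences above 1 on the log2 scale, and are named here after their values were seen. MYOZ2, a calcineurin-binding Z-disc protein of slow fibres, ranged from 3.95 to 7.65 in normal and from 6.93 to 8.99 in affected birds, a difference of 1.91 ± 0.53 (adjusted p = 0.0791), and 2.68 without the arrays with HINTW. MYOM3, a myomesin of the sarcomere's M-band, had a difference of 1.78 ± 0.62 (adjusted p = 0.124). LMOD2, a leiomodin that nucleates actin filaments in mammalian heart muscle, ranged from 3.85 to 5.83 and from 5.63 to 8.22, with 5 of 6 affected birds above every normal bird and a difference of 1.58 ± 0.44 (adjusted p = 0.0790). GSN (gelsolin), an actin-severing protein, had a difference of 1.03 ± 0.30 (adjusted p = 0.0846), with 5 of 6 affected birds above every normal bird.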
